A study of Mus musculus with 14 samples.

Results

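The genes described here are 10 that stand for macrophage polarization and immunosuppression: Arg1, Nos2, Il10, Vegfa, Hmox1, Mrc1, Msr1, Il4ra, Stat6 and Thbs1. They were picked by name out of 21883 protein-coding mouse genes. For each gene, histone H3 lysine 27 acetylation (H3K27ac) was read from peak summits within 1 kb of either end of the gene, and again over the gene plus 20 kb on both sides. The cells were CD11b+ tumour-associated macrophages sorted by flow cytometry at the end of treatment from T387 human glioblastoma grown in the brains of NSG mice, an immunodeficient strain that lacks mature lymphocytes. All mice carried this tumour. One group received pracinostat, a histone deacetylase inhibitor, by mouth at 30 mg/kg; dosing began on day 7 of tumour growth and ran for 3 weeks with 4 doses in each. The other received the DMSO-containing solvent. The text on drug preparation gives 3 mg/kg, so the labels conflict on the dose. The labels used here state neither the age nor the sex of the mice. There were 3 DMSO and 4 pracinostat H3K27ac libraries by CUT&Tag, in which an antibody directs a transposase to tag DNA beside the mark, and as many libraries with non-specific IgG. The sort yields a bulk population, in which fewer cells of a type and less of the mark per cell cannot be told apart.

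H3K27ac marks active promoters and enhancers, and deacetylase inhibitors block its removal. Macrophages exposed to IL-4 or IL-13 signal through the receptor chain encoded by Il4ra to the transcription factor STAT6, which switches on genes such as Arg1 and Mrc1, whereas interferon and microbial signals switch on Nos2. ARG1 and NOS2 compete for arginine. IL-10, VEGF-A, heme oxygenase 1 and thrombospondin 1 are products of tumour-associated macrophages that are linked to immune restraint and to vessel growth.

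The reference promoters of 4 of the 10 genes were available with their strand (RefSeq, GRCm38.p6), and are printed because they carry the contrast in the data: acetylation summits sat beside the starts of Il4ra and Stat6 in all 7 H3K27ac libraries, and less regularly beside those of Mrc1 and Vegfa. Each run is the 250 bases before the listed start, 5′ to 3′ on the gene's strand. Capitals mark matches on either strand to the PU.1 core GAGGAA, the hypoxia response core ACGTG, the antioxidant response core TGANNNNGC and the NF-kB motif GGGNNTTCC.
Il4ra: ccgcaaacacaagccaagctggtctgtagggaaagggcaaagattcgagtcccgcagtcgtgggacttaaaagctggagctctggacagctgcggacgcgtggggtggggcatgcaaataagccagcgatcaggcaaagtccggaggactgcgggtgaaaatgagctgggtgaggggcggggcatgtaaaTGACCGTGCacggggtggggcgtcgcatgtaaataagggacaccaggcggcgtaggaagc
Stat6: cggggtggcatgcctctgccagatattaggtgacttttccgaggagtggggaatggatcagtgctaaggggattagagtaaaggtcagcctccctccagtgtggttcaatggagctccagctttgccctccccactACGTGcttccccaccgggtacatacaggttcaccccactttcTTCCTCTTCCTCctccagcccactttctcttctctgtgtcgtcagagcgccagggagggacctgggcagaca
Mrc1: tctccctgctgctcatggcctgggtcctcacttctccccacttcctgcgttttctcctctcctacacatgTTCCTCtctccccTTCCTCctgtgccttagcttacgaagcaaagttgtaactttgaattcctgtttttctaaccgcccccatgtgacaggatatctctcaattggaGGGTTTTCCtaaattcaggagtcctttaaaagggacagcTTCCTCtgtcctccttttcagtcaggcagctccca
Vegfa: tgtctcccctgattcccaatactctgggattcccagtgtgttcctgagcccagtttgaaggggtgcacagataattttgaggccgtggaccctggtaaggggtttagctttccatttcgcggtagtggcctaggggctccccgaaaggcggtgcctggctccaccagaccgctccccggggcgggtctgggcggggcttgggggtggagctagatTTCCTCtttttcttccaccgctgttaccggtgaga
The Il4ra bases are chr7:125552021-125552270 on the plus strand, those of Stat6 chr10:127642736-127642985 on the plus strand, those of Mrc1 chr2:14229164-14229413 on the plus strand, and those of Vegfa chr17:46032378-46032627 on the minus strand.

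Il4ra had the most CpG-rich of these promoters, with 17 CpG and a GC content of 59.6%, against 6 CpG and 56.8% in Stat6, 11 and 59.2% in Vegfa, and 3 and 49.6% in Mrc1. Medians over the 32851 promoters of the table were 6 CpG and 52.4%. The summit nearest to the listed start lay 1 to 81 bp away in all 7 libraries for Il4ra and 24 to 98 bp away in all 7 for Stat6. For Mrc1 it lay 2 to 384 bp away in 6 libraries and 2146 bp away in pracinostat replicate 3. For Vegfa, 4 of 7 libraries had a summit within 1 kb, the nearest at 153 bp in pracinostat replicate 2. The PU.1 core, letters bound by a factor that sets macrophage identity, matched 3 times in Mrc1, 2 times in Stat6 and 1 time in Vegfa, and is found in 23.3% of all promoters of this length. Stat6 held 1 hypoxia core (16.6% of promoters), Il4ra 1 antioxidant core (35.2%) and Mrc1 1 NF-kB motif (4.98%). None of the 4 held the STAT6 motif, TTC and GAA with 4 bases between (5.85% of promoters), the STAT motif TTCNNNGAA (7.02%), the AP-1 motif TGANTCA (6.75%) or the TATA letters TATAAA (12.4%). These are matches of letters within 250 bases, and the PU.1 and NF-kB matches of Mrc1 do not overlap.

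The files list summits with a −log10 significance value that grows with a library's depth. A gene's level is therefore its percentile within a library, where 100 is the gene with the highest value and genes without a summit tie at the bottom. The H3K27ac lists held 208401 to 291042 summits, except DMSO replicate 2 with 53503, of which 34928 shared the lowest value. In DMSO replicate 2, 38.0% of ranked genes had no summit at either end and tied at percentile 19.0, against percentiles of 3.42 to 5.61 in the other 6 libraries. Genes whose highest end summit had the lowest value of DMSO replicate 2 tied there at percentile 47.3. IgG lists held 2194 to 18517 summits. No gene of the 10 had an end summit in any of the 7 IgG libraries, where 0.53 to 2.7% of all protein-coding genes had one. H3K27ac end summits were present at 8, 4 and 9 of the 10 genes in DMSO replicates 1 to 3 and at 8, 9, 9 and 10 in pracinostat replicates 1 to 4. Of all protein-coding genes, 57.5, 38.8 and 61.6% had one in DMSO and 58.4, 60.2, 58.5 and 61.4% in pracinostat.

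The macrophage label was checked against markers: 12 of 12 listed macrophage markers were ranked at their ends, with a median percentile over the markers of 60.4 in DMSO and 74.5 in pracinostat, and 11 of 12 differences above 0 (1 at an unadjusted p under 0.05). Over all ranked genes 48.6% of differences were above 0 and 6.17% had such a p, and no marker of any list passed the adjusted test in limma. Of the neutrophil markers, whose cells also carry CD11b, 9 of 11 were ranked, with medians of 34.4 and 15.0, 8 of 9 differences below 0 and 3 at an unadjusted p under 0.05, all with lower ranks in pracinostat. Their medians by library were 16.4, 47.3 and 36.5 in DMSO and 17.6, 17.7, 18.3 and 19.6 in pracinostat. The 47.3 of DMSO replicate 2 is the tie of end summits at its lowest value, and also its median over all ranked genes. Lymphocyte markers (5 of 8 ranked) had medians of 15.8 and 30.0, and dendritic cell markers (6 of 6) 17.4 and 21.0. Oligodendrocyte markers (2 of 6) had 37.7 and 33.9, and neuron and astrocyte markers (3 of 8) 22.7 and 22.3. Endothelial and mural markers (4 of 6) had 20.2 and 20.8. The part of these marker levels in the results that follow was not tested.

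At gene ends, the 10 genes formed a high trio and a low group of 7. Stat6 had a median percentile over the 7 libraries of 89.1, Il4ra 88.7 and Hmox1 72.9. Below them were Mrc1 at 39.3, Thbs1 at 36.2, Il10 at 25.5, Nos2, Arg1 and Msr1 each at 19.0 and Vegfa at 14.9. The shared 19.0 is the tie of genes without an end summit in DMSO replicate 2, the middle library for these genes. Without that library, the means were 26.06 for Arg1, 19.98 for Msr1 and 17.22 for Nos2, beside 27.01 for Il10 and 17.26 for Vegfa. Without DMSO replicate 2, the step of 37.5 between the means of Hmox1 and Mrc1 and that of 8.94 between Thbs1 and Il10 exceeded the SD over the 6 libraries. Stat6 and Il4ra, Il4ra and Hmox1, Mrc1 and Thbs1, and the neighbours from Il10 downward did not differ beyond that SD.

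**Figure D1:**
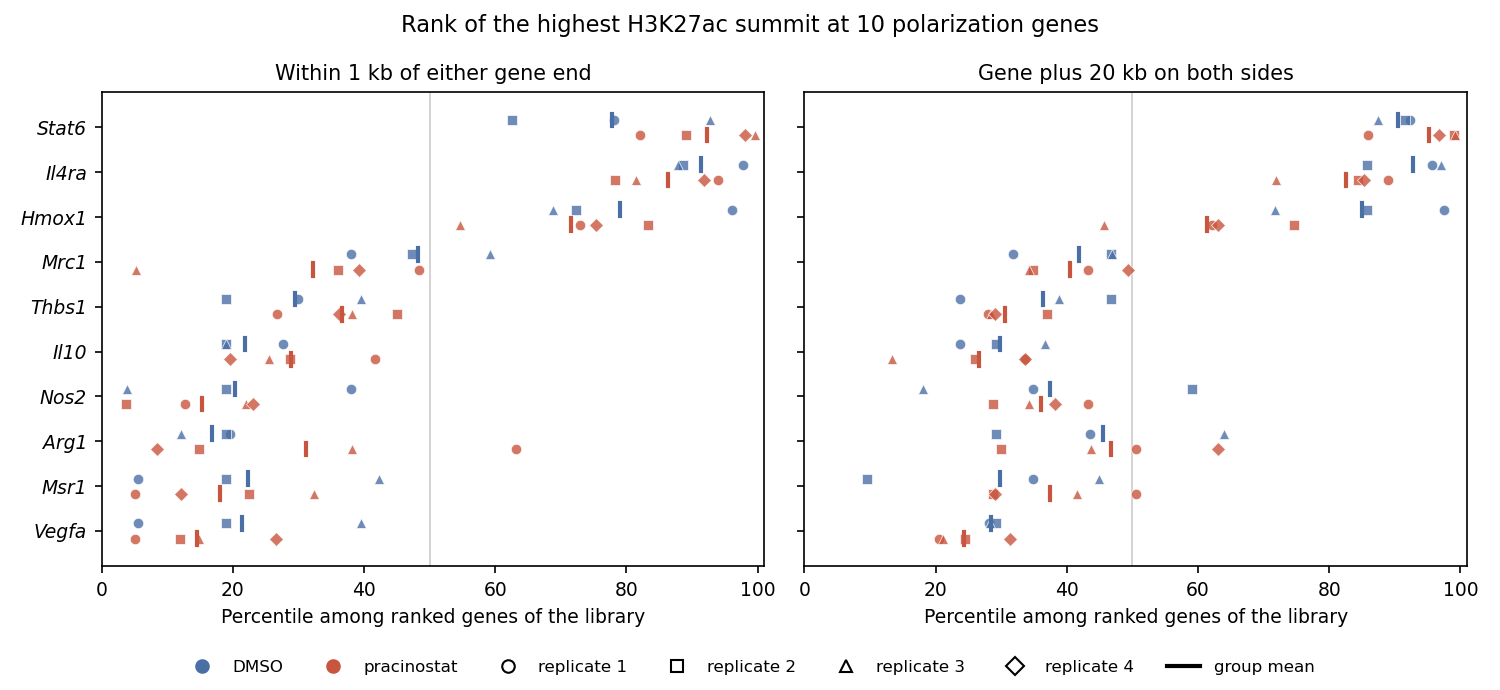
Percentile of each of the 10 genes at its ends (left panel) and over the gene plus 20 kb (right panel) in the 3 DMSO and 4 pracinostat H3K27ac libraries; points are libraries, shapes are replicates and ticks are group means. Stat6, Il4ra and Hmox1 stand above the other 7 genes at their ends, and for every gene the DMSO and pracinostat points overlap at the ends.

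None of the 10 genes differed between pracinostat and DMSO at gene ends in limma with Benjamini-Hochberg adjustment over 13491 ranked genes, where 0.0% of all genes were called. At an unadjusted p under 0.05 there were 0 of the 10, against 6.17% of all ranked genes. Differences are in normal-score units, where 1 unit is 1 SD over all ranked genes. They were above 0 for 4 genes and below 0 for 6, with a median of −0.12, beside −0.01 over all ranked genes, of which 48.6% were above 0. The groups overlapped for all 10 genes, while 2.88% of all ranked genes were higher and 3.79% lower in pracinostat with no overlap.

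The IL-4 axis comes first. Stat6 (chr10:127642955-127660987), the transcription factor activated by IL-4 and IL-13 receptors, stood at end percentiles of 78.1, 62.6 and 92.8 in DMSO replicates 1 to 3 and 82.1, 89.1, 99.6 and 98.2 in pracinostat replicates 1 to 4. Pracinostat replicates 3 and 4 were the highest and DMSO replicate 2 the lowest, and DMSO replicate 3 lay within the pracinostat range. The means were 77.8 ± 15.1 (SD, n = 3) and 92.3 ± 8.20 (n = 4). The difference of 0.88 ± 0.44 (SE) units was the largest in size of the 10 and did not pass the test (limma, unadjusted p = 0.0533, adjusted p = 0.808). It was 0.61 without DMSO replicate 2 and 0.56 without pracinostat replicate 3. Using the listed 5′ end alone gave 0.92, so the value did not rest on the far end, which overlaps the gene Nab2 (a corepressor of EGR factors) and shares its window. The genes whose end percentiles followed Stat6 most closely over the 7 libraries were Bin1 (Pearson r = 0.975), Dennd5a (0.97) and Yod1 (0.967) on the normal-score scale, as a description of libraries that share depth and groups.

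Around Stat6, the summits formed a block over the start. The region chr10:127641693-127644717 is 3025 bp long and had percentiles among all ranked regions of 91.1, 93.8 and 97.1 in DMSO and 91.2, 96.1, 99.8 and 99.3 in pracinostat. Those values lay near the top in both groups and overlapped (0.53 ± 0.40 units, adjusted p = 0.893). A region 6115 bp below the lower gene end, chr10:127636582-127637098, had the smallest p of the 15 Stat6 regions. Its percentiles were 10.1, 25.1 and 10.2 in DMSO, the bottom tie of each library, and 23.1, 86.2, 86.6 and 30.2 in pracinostat. All 3 DMSO libraries thus lacked a summit there and all 4 pracinostat libraries had one, although the percentile of pracinostat replicate 1 was under that of the tie in DMSO replicate 2. The difference was 1.31 ± 0.54 units (limma, unadjusted p = 0.0162, adjusted p = 0.893). The region was listed and ranked through pracinostat summits alone, which set its direction in advance, so its p is a description only. Over the gene plus 20 kb, Stat6 stood at 92.4, 91.5 and 87.5 in DMSO and 85.9, 99.0, 99.2 and 96.8 in pracinostat, again overlapping (0.60 ± 0.41 units, adjusted p = 0.897). In 3 libraries the highest summit of that span lay 32.0 kb above the Stat6 start, within 2147 bp of Nemp1, a neighbouring gene.

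Il4ra (chr7:125552271-125579474) encodes the receptor chain shared by IL-4 and IL-13 signalling. Its end percentiles were 97.8, 88.7 and 87.9 in DMSO and 94.0, 78.3, 81.5 and 91.9 in pracinostat. Every library placed it above 78, with DMSO replicate 1 the highest, and the groups overlapped. The means were 91.5 ± 5.47 (SD, n = 3) and 86.4 ± 7.70 (n = 4), a difference of −0.30 ± 0.42 units (limma, adjusted p = 0.948) that was −0.03 without DMSO replicate 1. The span percentiles were 95.6, 85.7 and 97.0 in DMSO and 88.9, 84.3, 71.9 and 85.3 in pracinostat (−0.59 ± 0.37 units, adjusted p = 0.897).

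The Il4ra start lay inside the longest region of the 10 loci, chr7:125549810-125555236. It spans 5427 bp, which 99.98% of the consensus regions do not reach. It held 12, 7 and 13 summits in DMSO and 14, 15, 14 and 12 in pracinostat, so its width was filled in both groups. Its percentiles were 99.2, 95.6 and 99.4 in DMSO and 97.4, 91.7, 91.5 and 96.5 in pracinostat (−0.58 ± 0.40 units, adjusted p = 0.893). The smallest p of the 26 Il4ra regions belonged to chr7:125543560-125544060, 8461 bp below the lower gene end, with percentiles of 83.1, 25.1 and 30.9 in DMSO and 9.02, 7.43, 10.7 and 22.6 in pracinostat. The value of DMSO replicate 2 there is its bottom tie, and an IgG summit of DMSO replicate 1 lay in the same region with a value above 94.6% of its IgG list. The difference was −1.12 ± 0.56 units (unadjusted p = 0.0433, adjusted p = 0.893) and −0.61 without DMSO replicate 1. Il4ra also had the densest summits of the 10 genes: its median percentile for summits per kb of span was 99.3, followed by Stat6 at 98.6 and Hmox1 at 93.3, with the others between 40.9 and 68.0.

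**Figure D2:**
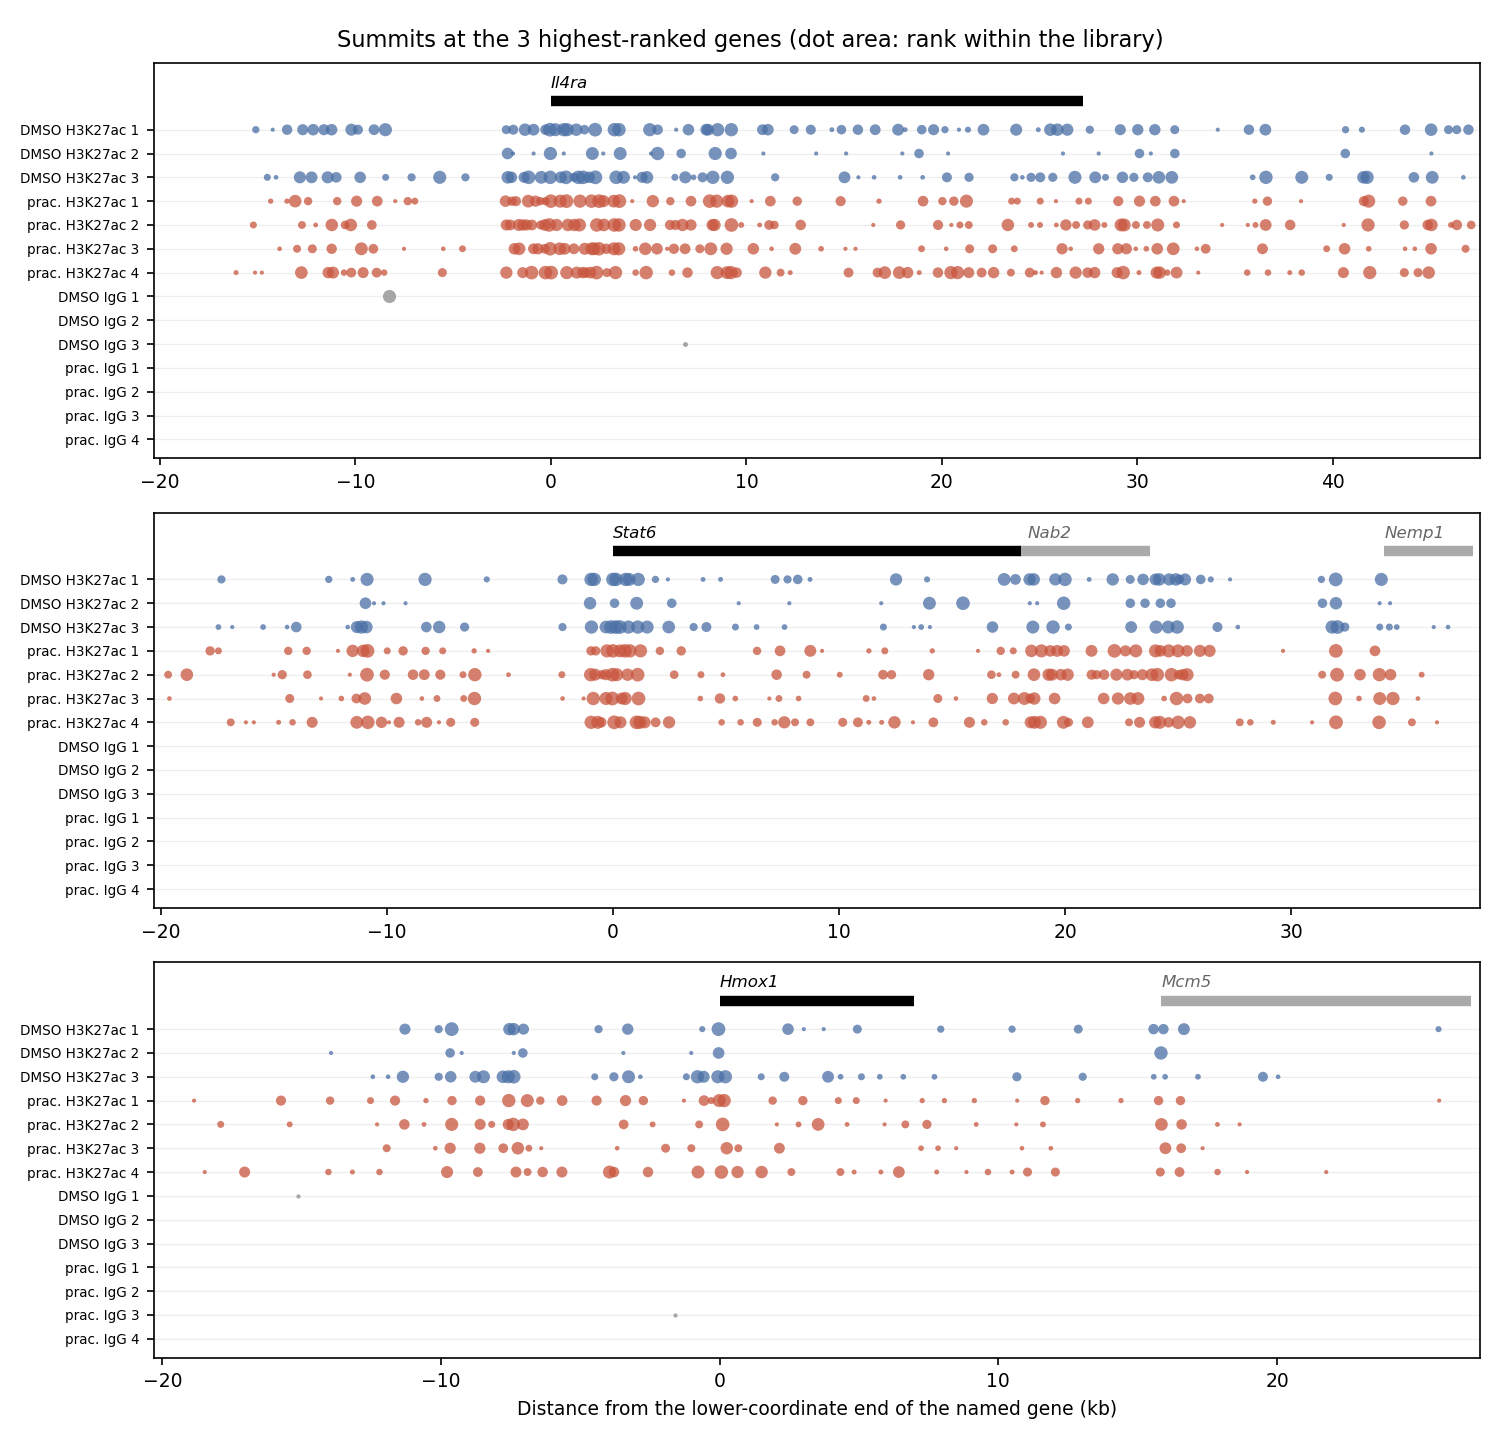
Summits around Il4ra, Stat6 and Hmox1 in each H3K27ac and IgG library, by distance in kb from the lower-coordinate gene end; each row is a library, dot area grows with the rank of a summit within its library, black bars are the named genes and grey bars their neighbours. Il4ra and Stat6 have a dense block over that end in all 7 H3K27ac libraries, and IgG summits are few.

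Arginine enzymes had low ends. Arg1 (chr10:24915207-24927470), the urea cycle enzyme that depletes arginine in alternatively activated macrophages, stood at end percentiles of 19.6, 19.0 and 12.0 in DMSO and 63.1, 14.9, 38.2 and 8.52 in pracinostat. Pracinostat replicates 1 and 3 were above every DMSO library and replicates 2 and 4 were not. The means were 16.9 ± 4.21 (SD, n = 3) and 31.2 ± 24.8 (n = 4), a difference of 0.37 ± 0.38 units (limma, adjusted p = 0.927). It was 0.06 without pracinostat replicate 1, and the lower end of Arg1 shares its window with Med23, a Mediator subunit gene.

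In every library except pracinostat replicate 1, the highest Arg1 summit of the span lay outside the 1 kb windows. A region chosen after its values were seen, for its summits in every library, chr10:24930026-24930644, whose midpoint is 2865 bp above the upper gene end, was the sole one of the 5 Arg1 regions with a summit in all 7 H3K27ac libraries, and no IgG library had one there. It overlaps the long non-coding RNA gene Gm40616. Its percentiles were 71.8, 60.9 and 51.0 in DMSO and 70.1, 33.8, 65.7 and 87.5 in pracinostat. Both the highest and the lowest value came from pracinostat, and the means of 61.2 ± 10.4 (SD, n = 3) and 64.2 ± 22.4 (n = 4) differed by 0.12 ± 0.48 units (adjusted p = 0.976). Arg1 has a well-known upstream enhancer that binds STAT6 and C/EBPβ; whether this region is that enhancer was not tested. The smallest p of the 5 Arg1 regions was at chr10:24928137-24928637, just beyond the upper gene end. It is centred on the highest summit of pracinostat replicate 1, 917 bp from that end, which also gave that library's end percentile. No DMSO library and 3 of 4 pracinostat libraries had a summit there, at percentiles of 76.3, 21.2 and 47.8 in pracinostat replicates 1 to 3 (0.68 ± 0.56 units, adjusted p = 0.893, and 0.31 without pracinostat replicate 1). Here too the region was listed and ranked through pracinostat summits alone, which set its direction in advance. Span percentiles of Arg1 were 43.5, 29.2 and 63.9 in DMSO and 50.5, 29.9, 43.6 and 63.0 in pracinostat.

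Nos2 (chr11:78920787-78960226), the inducible nitric oxide synthase of classically activated macrophages, had end percentiles of 38.1, 19.0 and 3.83 in DMSO and 12.8, 3.69, 21.9 and 23.0 in pracinostat. DMSO replicates 2 and 3 and pracinostat replicate 2 had no end summit at all. The difference was −0.13 ± 0.38 units (limma, adjusted p = 0.975) and was 0.22 without DMSO replicate 1. Its span percentiles ran from 18.1 to 59.1 in DMSO and from 28.7 to 43.2 in pracinostat, and in 3 of 7 libraries the highest summit of the span lay nearer to Lgals9, the galectin 9 gene, than to Nos2. The smallest p of the 3 Nos2 regions was at chr11:78916042-78916542, 4495 bp below the lower gene end, with percentiles of 34.8, 77.7 and 10.2 in DMSO and 9.02, 45.5, 35.0 and 7.69 in pracinostat (−0.52 ± 0.57 units, adjusted p = 0.912, and 0.02 without DMSO replicate 2).

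The endocytic receptors were intermediate to low. Mrc1 (chr2:14229414-14332023), the mannose receptor CD206, stood at end percentiles of 38.1, 47.3 and 59.2 in DMSO and 48.3, 36.0, 5.23 and 39.3 in pracinostat. Pracinostat replicate 3, with no summit at either end, was the lowest, and replicates 1 and 4 were inside the DMSO range. The means were 48.2 ± 10.6 (SD, n = 3) and 32.2 ± 18.7 (n = 4), a difference of −0.53 ± 0.37 units (limma, unadjusted p = 0.157, adjusted p = 0.870), and −0.18 without pracinostat replicate 3. The span percentiles were 31.8, 46.7 and 47.0 in DMSO and 43.2, 34.9, 34.3 and 49.4 in pracinostat. In 3 of 4 pracinostat libraries the highest Mrc1 summit lay 14.9 to 16.0 kb inside the gene, whereas in 2 of 3 DMSO libraries it lay within 1 kb of the start; this difference in place was not tested. The region over the start, chr2:14228998-14229697, had the smallest p of the 3 Mrc1 regions, at 44.1, 60.9 and 74.0 in DMSO and 45.9, 50.5, 10.7 and 49.4 in pracinostat (−0.59 ± 0.51 units, adjusted p = 0.896, and −0.29 without pracinostat replicate 3).

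Msr1 (chr8:39543232-39642750), the class A scavenger receptor, stood at 5.61, 19.0 and 42.3 in DMSO and 5.15, 22.4, 32.3 and 12.1 in pracinostat. DMSO replicates 1 and 2 and pracinostat replicate 1 had no end summit. The difference was −0.12 ± 0.38 units (limma, adjusted p = 0.976). Over the gene plus 20 kb, DMSO replicate 2 had 0 summits, where the other libraries had 10 to 31. The highest Msr1 summit lay 77.2 to 77.3 kb from the lower gene end in 3 of 4 pracinostat libraries, well inside the gene. The region there, chr8:39620298-39620798, had a summit in those 3 libraries and in DMSO replicate 3, at 76.3, 45.5, 45.8 and 51.0 in that order (0.45 ± 0.55 units, adjusted p = 0.919, and 0.14 without DMSO replicate 1).

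The secreted factors had ends in the lower part of the ranking. Il10 (chr1:131019845-131024970), the immunosuppressive cytokine, stood at 27.6, 19.0 and 19.0 in DMSO and 41.7, 28.6, 25.5 and 19.6 in pracinostat. Pracinostat replicates 1 and 2 were above every DMSO library, and replicates 3 and 4 were not (0.21 ± 0.36 units, limma, adjusted p = 0.958). The number of Il10 span summits per 100000 list summits was 2.88, 1.87 and 2.75 in DMSO and 6.34, 3.48, 3.25 and 5.19 in pracinostat. This was the sole summit share of the 10 genes whose groups did not overlap, beside 3.01% of all 18744 genes higher and 2.27% lower in pracinostat without overlap. The counts behind it were small, 6, 1 and 8 summits in DMSO and 15, 8, 8 and 15 in pracinostat. On the log2 scale with a pseudocount of 0.5 summits the difference was 0.64 ± 0.36 (limma, unadjusted p = 0.0891, adjusted p = 0.894). It was 0.05 with the gene body alone and 0.24 with a flank of 50 kb, so its size depended on the 20 kb flank. Its highest summit gave span percentiles of 23.7, 29.2 and 36.6 in DMSO and 33.6, 26.0, 13.4 and 33.6 in pracinostat, with no separation. Its sole ranked region, chr1:131025853-131026353, had a summit in DMSO replicates 1 and 2 and pracinostat replicate 4 (−0.73 ± 0.53 units, adjusted p = 0.893, and −0.38 without DMSO replicate 2). That region was centred on the DMSO replicate 2 summit, which had that library's lowest value and was listed by a random draw among ties.

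Vegfa (chr17:46016993-46032377), the hypoxia-induced vessel growth factor, stood at end percentiles of 5.61, 19.0 and 39.5 in DMSO and 5.15, 11.9, 14.9 and 26.5 in pracinostat. DMSO replicates 1 and 2 and pracinostat replicate 1 had no end summit. The difference was −0.21 ± 0.38 units (limma, adjusted p = 0.958). Its highest summit nevertheless lay near the 5′ end in 6 of 7 libraries, 723 to 1530 bp from it, and was within the 1 kb window in DMSO replicate 3 alone. The end values of pracinostat replicates 2 to 4 came from lower summits nearer to the start, at 153, 680 and 327 bp. Vegfa was the sole gene of the 10 with no consensus region, as no summit of its span was in the list of 30000 taken from each library. Its summit in DMSO replicate 2 had that library's lowest value, and ties at that value were drawn at random. Its span percentiles were 28.1, 29.2 and 28.2 in DMSO and 20.5, 24.5, 21.1 and 31.3 in pracinostat.

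Thbs1 (chr2:118111876-118127133), a matrix glycoprotein that binds CD47 and CD36 and activates TGF-β, stood at end percentiles of 29.9, 19.0 and 39.5 in DMSO and 26.7, 45.1, 38.2 and 36.2 in pracinostat. Pracinostat replicate 2 was the highest and the groups overlapped (0.21 ± 0.35 units, limma, adjusted p = 0.958). The difference was 0.05 without DMSO replicate 2. Its lower end lies 674 bp from the long non-coding RNA gene Gm13986 and shares that window. In 4 of 7 libraries the highest Thbs1 summit was within 1 kb of the lower gene end, the most of the 10 genes. The smaller p of its 2 ranked regions was at chr2:118110108-118110608, 1518 bp below that end, with summits in DMSO replicate 3 and pracinostat replicates 1, 2 and 4 (−0.29 ± 0.56 units, adjusted p = 0.951, and 0.13 without DMSO replicate 3). Its span percentiles were 23.7, 46.7 and 38.8 in DMSO and 28.0, 37.0, 28.4 and 29.1 in pracinostat.

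**Figure D3:**
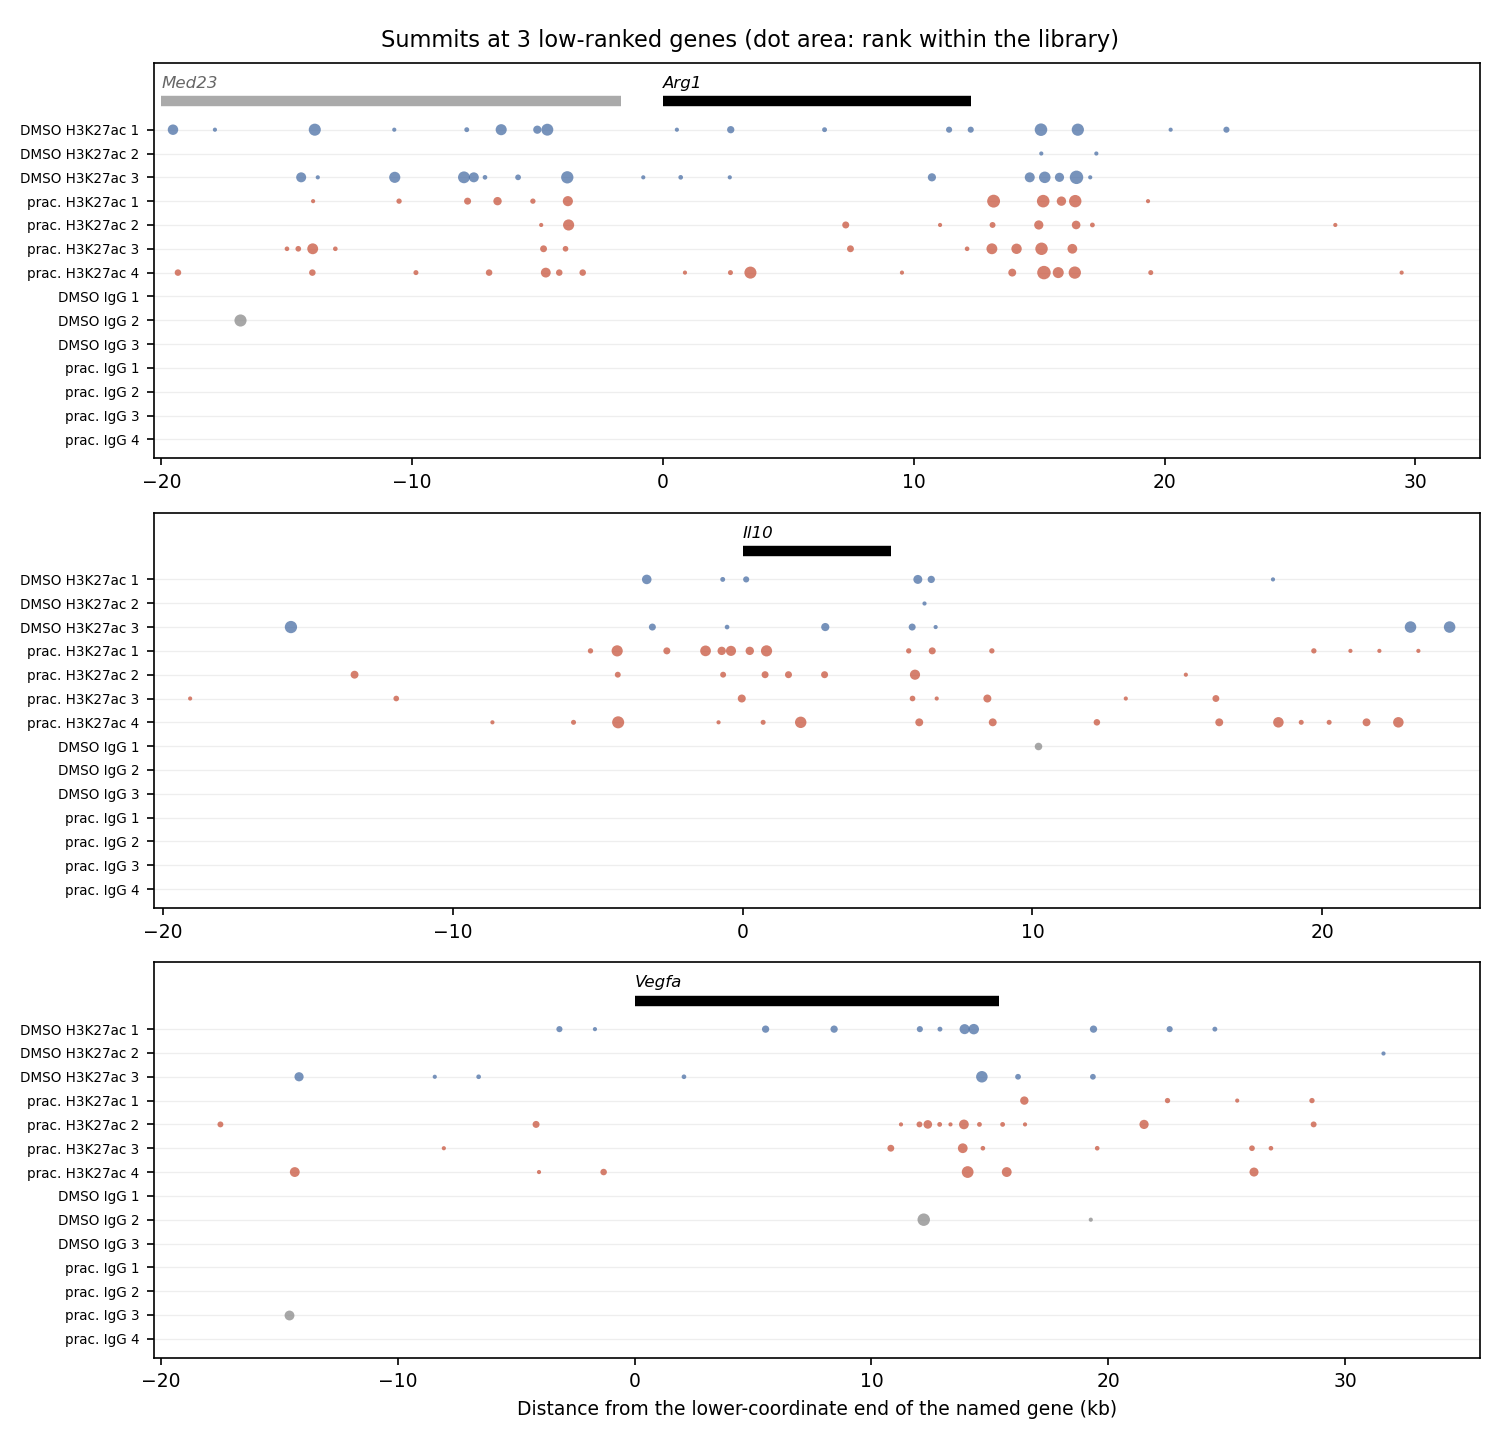
Summits around Arg1, Il10 and Vegfa in each H3K27ac and IgG library, by distance in kb from the lower-coordinate gene end; each row is a library, dot area grows with rank within the library, and bars are genes. Arg1 summits cluster about 15.1 kb from that end, beyond the upper end of the gene, and Vegfa summits gather near its upper end, which is its 5′ end.

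Hmox1 (chr8:75093618-75100593) encodes heme oxygenase 1, which breaks down heme and is induced by NRF2. At its ends it stood at percentiles of 96.1, 72.3 and 68.8 in DMSO and 72.9, 83.3, 54.7 and 75.4 in pracinostat. Except for DMSO replicate 1 at the top and pracinostat replicate 3 at the bottom, the libraries lay between 68.8 and 83.3. The means were 79.1 ± 14.8 (SD, n = 3) and 71.6 ± 12.1 (n = 4), a difference of −0.35 ± 0.40 units (limma, adjusted p = 0.936) that was 0.05 without DMSO replicate 1.

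Over the gene plus 20 kb, Hmox1 was the sole gene of the 10 with an unadjusted p under 0.05. None of the 10 passed the adjusted test there, where 0.0% of 18744 genes were called and 5.89% had an unadjusted p under 0.05. The span differences were above 0 for 3 of the 10 and 49.1% of all genes, and no gene of the 10 was without overlap, beside 3.1% of all genes higher and 3.18% lower. Its span percentiles were 97.5, 85.7 and 71.8 in DMSO and 62.1, 74.7, 45.7 and 63.0 in pracinostat. Pracinostat replicate 2 lay above DMSO replicate 3, so the groups overlapped by that pair of libraries. The means were 85.0 ± 12.9 (SD, n = 3) and 61.4 ± 11.9 (n = 4), a difference of −0.91 ± 0.36 units (limma, unadjusted p = 0.0192, adjusted p = 0.783). It was −0.52 without DMSO replicate 1 and −0.97 without DMSO replicate 2. With the gene body alone and no flank it was 0.92 (unadjusted p = 0.0308, adjusted p = 0.842), the opposite sign. The highest summit of the span lay 9614 and 7388 bp from the gene in DMSO replicates 1 and 3, 7566 and 7241 bp from it in pracinostat replicates 1 and 3, beside the end of Mcm5 in DMSO replicate 2, and 109 and 63 bp from the Hmox1 end in pracinostat replicates 2 and 4. Median percentiles of the neutrophil markers by library were 16.4, 47.3 and 36.5 in DMSO and 17.6 to 19.6 in pracinostat. DMSO replicate 1, with the highest Hmox1 value, was slightly below every pracinostat library in these markers, and DMSO replicates 2 and 3 were above them all. The 47.3 of DMSO replicate 2 is the tie of end summits at its lowest value, and equals its median over all ranked genes. The part of these markers in the Hmox1 values was not tested.

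Consensus regions were then read one by one. Over the 66 regions in the spans of the 10 genes, 0 passed the adjusted test, where 2 of 48328 regions or 0.00414% did. At an unadjusted p under 0.05 there were 4 of 66, against 5.2% of all ranked regions. Differences were above 0 in 21 and below 0 in 45 of the 66, against 49.9% above 0 over all ranked regions; 26 of the 66 belong to Il4ra alone, of which 21 were below 0, and neighbouring regions of a locus are not independent. The groups did not overlap in 4 of the 66, all lower in pracinostat, against 3.06% lower and 3.34% higher of all ranked regions. One of the 4, chr10:127660901-127663312, lies over the upper Stat6 end and part of Nab2. It is described after its values were seen and had a summit in all 7 libraries. Its percentiles were 89.2, 97.7 and 86.9 in DMSO and 81.1, 70.5, 76.7 and 76.7 in pracinostat (−0.73 ± 0.44 units, limma, adjusted p = 0.893). Also among the 4 was the Il4ra region chr7:125543560-125544060. There DMSO replicate 2 had no summit but tied at 25.1, above pracinostat replicate 4, which had a summit at 22.6. Another Il4ra region of the 4, chr7:125578432-125579323, also described after its values were seen, had a summit in all 7 libraries. It stood at 65.6, 60.9 and 76.25 in DMSO and 27.1, 50.5, 25.3 and 56.0 in pracinostat (−0.74 ± 0.50 units, limma, adjusted p = 0.893). The 60.9 is a summit at the lowest value of DMSO replicate 2. A region 9642 bp below the lower Hmox1 end, chr8:75083697-75084255, had percentiles of 99.5, 77.7 and 51.0 in DMSO and 36.4, 80.2, 50.7 and 52.8 in pracinostat. DMSO replicate 1 stood far above the rest, and the difference of −0.98 ± 0.48 units (limma, unadjusted p = 0.0386, adjusted p = 0.893) was −0.25 without it. This region had the smallest p at Hmox1.

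A further Hmox1 region, described after its values were seen, was chr8:75090100-75090600, 3268 bp below the lower gene end. Its percentiles were 54.2, 60.9 and 74.0 in DMSO and 50.3, 36.8, 10.7 and 7.69 in pracinostat. All 3 DMSO libraries were above all 4 pracinostat libraries, of which replicates 3 and 4 had no summit there (−1.09 ± 0.54 units, unadjusted p = 0.0427, adjusted p = 0.893). The 60.9 of DMSO replicate 2 is the percentile that a summit at that library's lowest value took among regions. DMSO replicates 1 and 3 were above all 4 pracinostat libraries without it. The region over the lower gene end, chr8:75093303-75094123, had a summit in all 7 libraries, at 98.6, 86.7 and 81.7 in DMSO and 84.8, 93.7, 65.7 and 87.5 in pracinostat. There the groups overlapped.

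**Figure D4:**
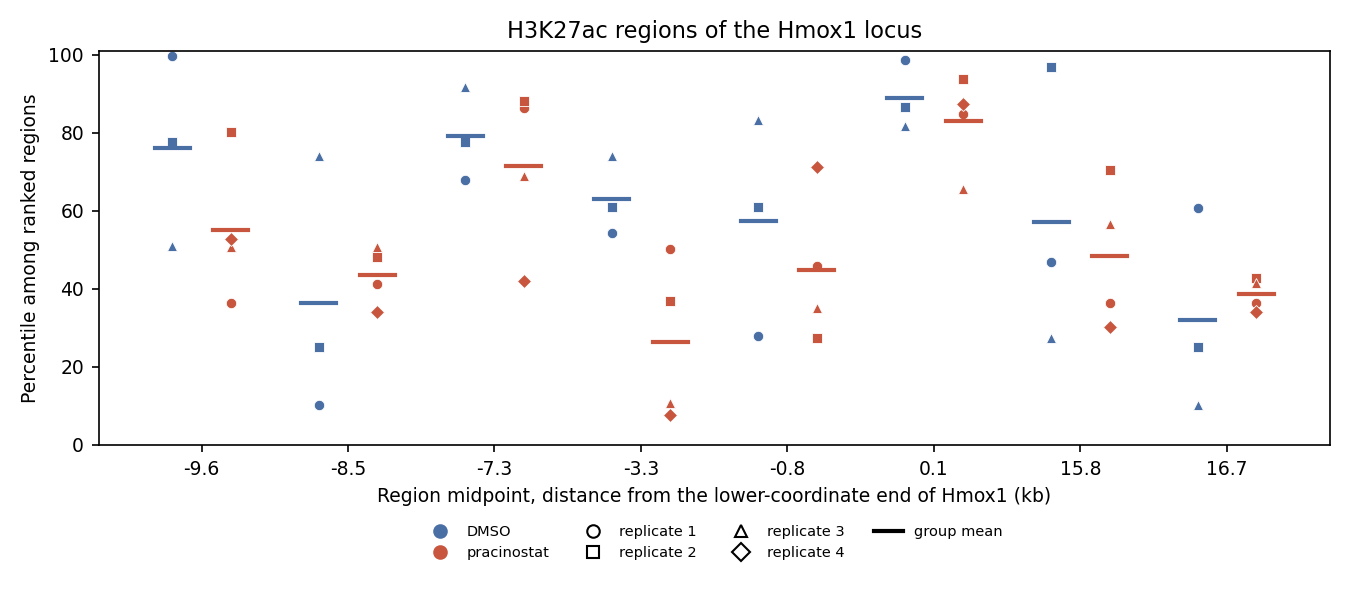
Percentile among all ranked regions of each consensus region around Hmox1, by its distance in kb from the lower-coordinate gene end, in 3 DMSO and 4 pracinostat libraries; points are libraries, lines are group means, and the axis places regions in order, not to scale. At 3268 bp below that end the DMSO libraries (54.2 to 74.0) all lie above the pracinostat libraries (7.69 to 50.3), and at the gene end the groups overlap. The DMSO replicate 2 point at 3268 bp is a summit at that library's lowest value.

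Across the summit shares of all 10 genes, 0 passed the adjusted test and 0 had an unadjusted p under 0.05, where 0.0% and 5.08% of 18744 genes did. Apart from Il10 and Msr1, the log2 differences ran from −0.31 to 0.04, and 39.4% of all genes were above 0. Msr1 had 0.98 ± 0.67 (limma, adjusted p = 0.911), which became −0.03 without DMSO replicate 2, the library with 0 summits there.

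**Figure D5:**
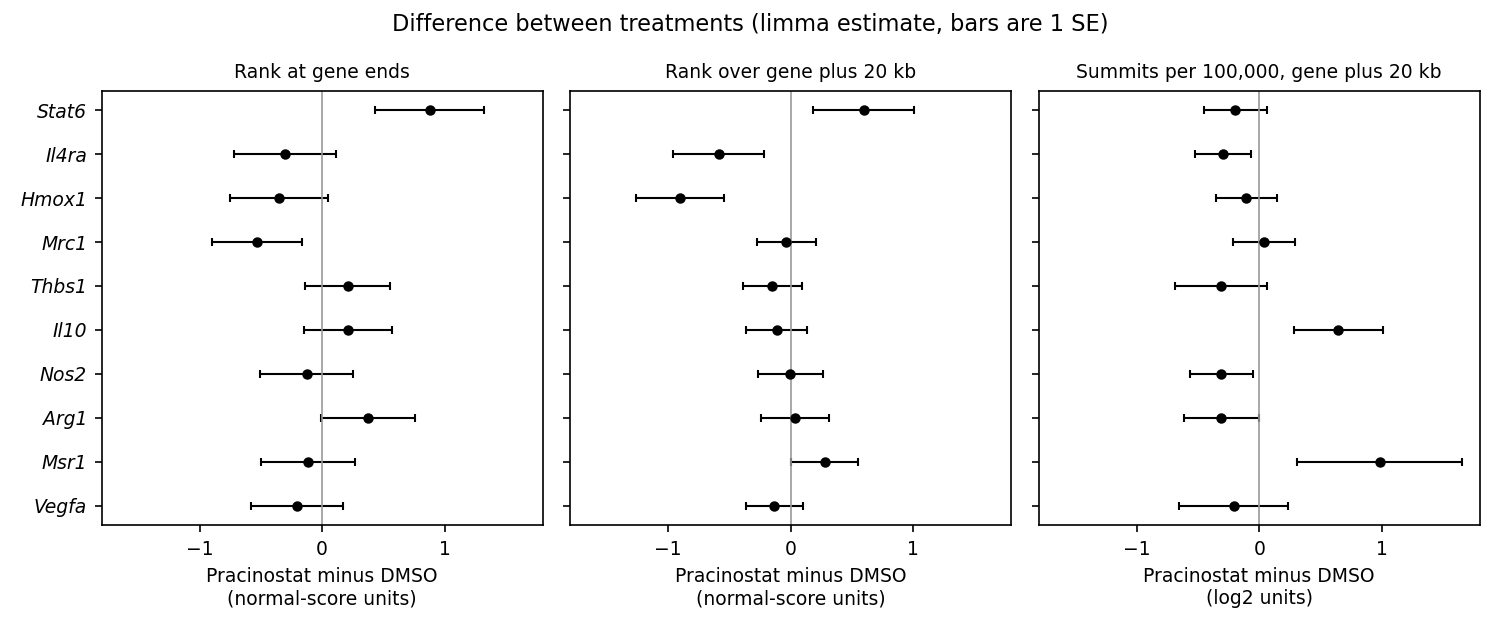
Difference of pracinostat minus DMSO for the 10 genes in the gene end ranks and the gene plus 20 kb ranks (normal-score units) and in the summit share (log2); points are limma estimates and bars are 1 SE. None passed the adjusted test; Stat6 at its ends (0.88) and Hmox1 over its span (−0.91) have the largest sizes among the rank differences.

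The wider pathways were read from 9 gene lists at gene ends. Of 125 genes 110 were ranked, 0 passed the adjusted test in limma and 5 had an unadjusted p under 0.05 (1 higher, 4 lower in pracinostat), beside 6.17% of all ranked genes. The median difference was −0.03 units, with 51 above and 59 below 0. Groups did not overlap for 1 gene higher and 5 lower of the 110, near the 2.88% higher and 3.79% lower of all ranked genes.

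Alternative activation genes had 17 of 19 members ranked, with 4 differences above and 13 below 0, a median of −0.31 units, 2 at an unadjusted p under 0.05 (1 in each direction) and 0 past the adjusted test. The groups did not overlap for 4 of the 17, all lower, where 3.79% of all ranked genes were lower and 2.88% higher in that way; the list was chosen with results of these data known. In that list Pparg, the nuclear receptor that supports alternative activation, stood at 46.7, 47.3 and 30.0 in DMSO and 5.15, 3.69, 11.8 and 30.0 in pracinostat. The highest pracinostat library lay just under the lowest DMSO library (−1.06 ± 0.38 units, limma, unadjusted p = 0.00695, adjusted p = 0.739). Pracinostat replicates 1 and 2 had no Pparg end summit, and the 47.3 of DMSO replicate 2 is a summit at that library's lowest value. Ppargc1b, a coactivator of that pathway, had means of 15.1 ± 9.94 (SD, n = 3) and 41.1 ± 24.8 (n = 4), with an adjusted p of 0.777; its difference of 0.90 units was 0.04 with 2.5 kb windows. With 1 library left out, Pparg ran from −1.31 to −0.89 and Ppargc1b from 0.57 to 1.10. Classical activation genes (18 of 20 ranked) had 10 differences above and 8 below 0 and none at an unadjusted p under 0.05; the smallest p values were those of Il1b, a cytokine (0.31 units, adjusted p = 0.937), and Irf1, an interferon-induced factor (−0.35, adjusted p = 0.934), which ran from 0.18 to 0.50 and from −0.61 to −0.18 with 1 library left out.

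IL-4 and IL-13 signalling genes (10 of 11 ranked) had 6 differences above and 4 below 0, and none had an unadjusted p under 0.05. The alternative receptor chain Il13ra1 was at 63.9, 62.6 and 54.7 in DMSO and 54.5, 28.6, 41.0 and 48.4 in pracinostat, lower without overlap (−0.44 ± 0.35 units, limma, adjusted p = 0.889), and Socs1, a feedback inhibitor, had the smallest p of those above 0 (0.52 units, adjusted p = 0.877, and 0.07 without DMSO replicate 2). IL-10 signalling genes (10 of 10) had 6 above and 4 below 0, led by Bcl3, a nuclear NF-kB regulator (0.41, adjusted p = 0.915), and Tnip3 (−0.57, adjusted p = 0.864, and −0.34 without DMSO replicate 3). Arginine and nitric oxide genes (11 of 12) had 4 above and 7 below 0. Among them the arginine transporter Slc7a1 had means of 73.9 ± 26.8 (SD, n = 3) and 46.6 ± 16.0 (n = 4), with an unadjusted p of 0.0288 and an adjusted p of 0.777 in limma. Its difference of −0.88 units was −0.51 without DMSO replicate 3 (unadjusted p = 0.217) and −1.36 without DMSO replicate 1. Ddah2, which degrades inhibitors of nitric oxide synthase, had 0.40 units (adjusted p = 0.910).

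Hypoxia and angiogenesis genes (14 of 17 ranked) had 4 differences above and 10 below 0. Epas1, which encodes HIF-2α, stood at 12.97, 18.98 and 3.83 in DMSO and 30.8, 26.7, 28.9 and 30.0 in pracinostat, all 4 above the DMSO libraries (0.71 ± 0.36 units, limma, adjusted p = 0.808, and 0.45 without DMSO replicate 3). DMSO replicates 2 and 3 had no Epas1 end summit, so their values are ties at the bottom. Pgf, a VEGF family ligand, had −0.37 units (adjusted p = 0.926, and −0.16 without DMSO replicate 2). Heme, iron and NRF2 genes (15 of 17) had 6 above and 9 below 0. Bach1, the heme-sensing repressor of Hmox1, had means of 81.4 ± 10.4 (SD, n = 3) and 53.6 ± 23.8 (n = 4), with an unadjusted p of 0.0378 and an adjusted p of 0.800 in limma. Slc48a1, a heme transporter, had 29.6 ± 15.4 and 52.5 ± 8.68 (adjusted p = 0.832).

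Scavenger and endocytic receptor genes (10 of 13 ranked) had 6 differences above and 4 below 0. Scarb1, the HDL receptor, had means of 85.5 ± 14.8 (SD, n = 3) and 63.8 ± 9.12 (n = 4), with an unadjusted p of 0.0206 and an adjusted p of 0.777 in limma. Its difference of −0.98 units was −0.48 without DMSO replicate 2 (unadjusted p = 0.244). Scarb2, a lysosomal membrane protein, had 0.45 units (adjusted p = 0.910, and 0.25 without DMSO replicate 1). Thrombospondin partners (9 of 11) had 7 above and 2 below 0, with Itgb1, the integrin β1 chain, at 0.57 (adjusted p = 0.870, and 0.18 without DMSO replicate 2) and Thbs3 at −0.43 (adjusted p = 0.894, and −0.24 without pracinostat replicate 3).

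IgG summits in the spans of the 10 genes numbered 13 in all, in 3, 4 and 1 genes in DMSO and 0, 1, 3 and 0 in pracinostat libraries, where 7.41 to 37.9% of all protein-coding genes held one. The highest of them within their lists were the Il4ra summit at 8.30 kb below the lower gene end and a Vegfa summit in DMSO replicate 2, 3178 bp inside its 5′ end with a value above 89.2% of its IgG list. None lay within 1 kb of a gene end.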

How the data were processed

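H3K27ac and IgG CUT&Tag summits of 14 libraries were used, grouped by the labels into 3 DMSO and 4 pracinostat libraries per antibody. Per the submitters' processing notes, the authors used Bowtie2, MACS2 2.2.9.1, DESeq2 and HOMER with build mm10; the part of each, the threshold for calling and any control library are not stated there. Each deposited file lists the summits of 1 library with a −log10 value per summit, and whether of a p-value or q-value is not stated. The authors' values are not normalized between libraries, so they served for ranks within a list. Read depth per library is unknown here beyond the number of summits, so no counting interval is printed.

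Genes and their ends came from the RefSeq table of GRCm38.p6, the assembly that mm10 names. It has no strand, so both ends were used and named lower and upper by coordinate; strand was known for 4 of the 10 genes from the promoter table. A gene took its highest value within 1 kb of either end, or over the gene plus 20 kb. Genes marked in 3 or more of the 7 H3K27ac libraries were ranked within a library (13491 at ends, 18744 over spans), and all 10 genes passed that filter in both. Summits per 100000 list summits were tested as log2 with a pseudocount of 0.5. Consensus regions were the 30000 highest summits of each library, extended by 250 bp and merged (60428, of which 48328 were ranked). Ties were broken at random. DMSO replicate 2 had fewer than 30000 summits above its lowest value, so its list was filled by a random draw among summits at that value. Ranks are relative, so a change at all sites alike would not show. Normal scores of ranks were compared with limma 3.58.1 under R 4.3.3, with a trended and robust variance, with Benjamini-Hochberg adjustment over all ranked features and a threshold of 0.05. The limma step was tested on simulated data.

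The 10 genes, the gene lists and the markers were chosen with earlier results of these data known. The text names all 10 genes, the gene with the smallest p in each direction in each of 9 lists, the region with the smallest p at each gene, the 3 genes most alike to the one with the smallest p at its ends, and genes that share a window. The labels call the samples biological replicates without naming animals, so a p-value reflects only how far these samples spread. Alternatives left out each library in turn or changed the block, weights, list length, filter, window, flank, pseudocount, region extension or scale.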

Additional observations from a re-analysis of the deposited data

Results flagged for a closer look

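In 30 groups of 4 pracinostat values (3 readouts of 10 genes), 2 had a highest library that stood apart from the other 3 by more than Dixon's 95% critical value, at 0.881 and 0.88 of the group's range; chance gives about 1 in 20 such groups. The first was the span percentile of Thbs1, at 37.05 in pracinostat replicate 2 with the others between 28.0 and 29.08. The second was the Il4ra summit share, at 31.36 summits per 100000 in pracinostat replicate 2 with the others between 25.26 and 25.99. The 3 DMSO values of a gene are too few for this check.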

How the results depend on the processing

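None of the 10 genes passed the adjusted threshold under any alternative run, nor did their 66 regions under those that keep the regions (regions rebuilt with a 100 bp extension were not counted). Over the alternatives, the adjusted p of the 10 genes in limma ran from 0.51 to 1.0 at ends, 0.521 to 1.0 over spans and 0.262 to 0.999 for shares, and that of the named regions from 0.638 to 0.999. The limits are the list of DMSO replicate 2, which holds 53503 summits, the ties at its lowest value, and 3 against 4 libraries.

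The number of all genes past the threshold at ends was 0, and became 2 with a summit in at least 1 library, 1 with the 30000 highest summits, 2 with 500 bp windows, 1 with summed values and 0 to 4 with 1 library left out. Over spans it was 0, and became 1 with the 30000 highest summits, 1 with no flank and 0 to 2 with 1 library left out. For shares it was 0, and became 2 with the replicate block, 5 with array weights and 0 to 1 with 1 library left out. For regions it was 2, and became 1 with the replicate block, 0 with list length as a covariate, 1 with array weights, 0 on the percentile scale and 0 to 2 with 1 library left out. The cause was not tested.

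To see whether same-numbered DMSO and pracinostat libraries deviate together, each gene's group mean was first subtracted from its normal scores at gene ends. These deviations correlated at −0.0543, 0.000646 and −0.0235 for replicates 1 to 3, and none correlated best with its own number. Whether same-numbered libraries share more than a number, such as a day or batch, was not tested. The replicate block changed no call of the 10 genes; it turned the Arg1 span difference to −0.106 and the Mrc1 share to −0.128.

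Other sign changes at ends were 0.0212 for Nos2 and 0.0203 for Msr1 with a summit in at least 1 library, 0.0239 for Msr1 with summed values, −0.0341 for Il10 and −0.353 for Bcl3 with 500 bp windows, and 0.0579 for Vegfa, −0.143 for Slc48a1 and 0.0634 for Tnip3 with 2.5 kb windows. Over spans, list length as a covariate gave −0.233 for Arg1, 0.304 for Nos2 and −0.0637 for Msr1. Array weights gave −0.0226 for Arg1, 0.07 for Nos2 and 0.0189 for Mrc1. No flank gave −0.0169 for Arg1, 0.171 for Nos2, 0.204 for Il10, 0.922 for Hmox1, 0.237 for Mrc1 and 0.12 for Thbs1, and a 50 kb flank gave 0.163 for Vegfa. For shares, list length gave 0.112 for Hmox1, −0.0692 for Msr1, 0.0195 for Il4ra and 0.231 for Stat6, array weights 0.157 for Hmox1, no flank 0.454 for Hmox1 and −0.0127 for Mrc1, the 30000 highest summits −0.326 for Mrc1, and a 50 kb flank 0.0563 for Thbs1. The Nos2 region at −4.5 kb gave 0.0864 with list length. The cause of these was not tested.

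With 1 library left out in turn, end differences ran from −0.518 to 0.215 for Nos2, −0.547 to 0.114 for Vegfa, −0.579 to 0.0539 for Hmox1 and −0.468 to 0.229 for Msr1. Span differences ran from −0.182 to 0.27 for Arg1, −0.281 to 0.29 for Nos2, −0.205 to 0.0383 for Il10, −0.165 to 0.033 for Mrc1 and −0.0706 to 0.519 for Msr1. Shares ran from −0.538 to 0.138 for Vegfa, −0.269 to 0.123 for Hmox1, −0.128 to 0.169 for Mrc1, −0.0341 to 1.73 for Msr1 and −0.498 to 0.217 for Stat6. The Nos2 region at −4.5 kb ran from −1.0 to 0.0153 and the Thbs1 region at −1.52 kb from −0.658 to 0.132. Stat6 at its ends (0.562 to 1.18) and Hmox1 over its span (−1.22 to −0.522) kept their signs when 1 library was left out. With the 30000 highest summits only Il4ra, Hmox1 and Stat6 passed the filter of 3 libraries at their ends. Il10, Nos2 and Vegfa did not pass it over their spans. With 500 bp windows Arg1 and Vegfa did not pass that filter, and the listed 5′ end could be used for Mrc1, Il4ra, Stat6 and Vegfa alone.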

Other observations

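Where a gene's highest end summit lay differed among the 10 genes. Il4ra and Stat6 had summits at both ends in 7 of 7 libraries, with the higher one at the lower-coordinate end, their 5′ end, in all 7. Hmox1 had one at the lower end in 7 libraries and at the upper end in 6, the higher at the lower end in all 7. Mrc1 and Thbs1 each had a lower-end summit in 6 libraries and an upper-end summit in 1. Il10 had both in 6 libraries. For Vegfa, 0 libraries had a summit at the lower end and 4 at the upper end, which is its 5′ end. Msr1 had 1 and 4, Arg1 3 and 4, and Nos2 3 and 3.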
